A study of Mus musculus with 6 samples.

Results

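Fatty acid uptake and beta-oxidation is described here through 34 genes that were set by name, of 56262 genes in the count table. All 34 were found, and all 34 passed the filter on low counts that left 22071 genes to test. They cover the entry of fatty acids into the cell, their activation, their transport into mitochondria, the enzymes of the oxidation spiral, the carriers that take up its electrons, and the enzymes and receptors that regulate the flux. The RNA came from leg muscle of mouse fetuses at embryonic day 18.5, with 3 wild type (WT) libraries and 3 knockout (KO) libraries, and the comparison asked how gene expression in fetal muscle differs without *SYISL*. *SYISL* is a long noncoding RNA transcribed in the sense direction from within an intron of *Synpo2*, and it is deleted in the KO line. The matings were between mice of a single genotype, so KO fetuses had KO mothers and WT fetuses had WT mothers, and the genotype of the fetus cannot be told apart from that of its mother. The labels name no litter, sex or mother for any fetus and do not say whether fetuses were pooled.

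The libraries held 82054811 to 102233181 counts. CPM below is a gene's count scaled to the library size that TMM gives, and 3 counts, the limit that a count of 0 allows, came to between 0.0284 and 0.0363 CPM per library, for counting error only. *SYISL* has no symbol in the annotation used, so its deletion was not checked by counts, and its host gene *Synpo2* was higher in KO, with a level of 135.5 ± 4.21 CPM in WT against 213.8 ± 18.9 CPM in KO (SD, n = 3 each). The 12 marker genes of muscle fibers summed to between 21358 and 24073 CPM in the WT libraries and between 46021 and 56335 CPM in the KO libraries, so fiber RNA was abundant in all 6. Markers of epidermis summed to between 16393 and 24533 CPM in WT and between 699.7 and 812 CPM in KO, and those of red blood cells to between 3948 and 5191 CPM and between 548 and 669 CPM, so the WT libraries held far more RNA of skin and blood. Nothing in the labels says that libraries of a genotype came from separate animals, so the p-values measure the spread between these libraries, which may be technical.

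Muscle takes up long-chain fatty acids with the help of membrane carriers, couples them to coenzyme A, and passes them through the carnitine shuttle into the mitochondrion. There the oxidation spiral shortens the chain in repeated rounds of dehydrogenation, hydration, a further dehydrogenation and thiolysis, and hands electrons to the respiratory chain. Malonyl-CoA, made by acetyl-CoA carboxylase, holds back the entry step, and nuclear receptors of the PPAR family are known to switch on many of these genes. Fatty acid oxidation in heart and skeletal muscle is known to rise around and after birth.

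Promoter sequences of RefSeq (build GRCm38.p6, which mm10 corresponds to) were available for 30 of the 34 genes, and *Crat*, *Decr1*, *Cpt1b* and *Acaa2* had none. The stretches below are the 100 bases before the start site of *Acadl*, the member with the highest level per kb, of *Acacb*, whose level rose most, and of *Slc27a4* and *Acot1*, whose levels fell most. Capitals mark a GC box (GGGCGG) or a TATA box (TATAAA) on either strand.
Acadl, minus strand, chr1:66863310-66863409: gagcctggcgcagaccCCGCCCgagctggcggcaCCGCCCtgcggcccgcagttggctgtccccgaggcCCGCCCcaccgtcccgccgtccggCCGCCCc
Acacb, plus strand, chr5:114165418-114165517: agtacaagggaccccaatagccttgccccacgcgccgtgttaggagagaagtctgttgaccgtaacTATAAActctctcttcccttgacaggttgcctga
Slc27a4, plus strand, chr2:29802534-29802633: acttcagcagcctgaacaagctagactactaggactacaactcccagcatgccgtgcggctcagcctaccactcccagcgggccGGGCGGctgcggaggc
Acot1, plus strand, chr12:84009402-84009501: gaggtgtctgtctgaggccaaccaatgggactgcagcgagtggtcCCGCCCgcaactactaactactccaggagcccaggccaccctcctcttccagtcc

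The *Acadl* stretch held GC boxes at 4 places, those of *Slc27a4* and *Acot1* at 1 place each, and that of *Acacb* none. The start used for *Acacb* lies inside the gene as GENCODE annotates it, downstream of an earlier first exon, so its stretch shows 1 of several possible starts. The windows searched ran from 250 bases before to 50 bases after the start, and the 30 genes had 35 of them. A GC box on either strand was in 25 of the 35, from 22 genes, against 35.7% of all 32851 promoters. A TATA box was found in 1 of the 35, that of *Acacb*, against 13.6% of all promoters. The letters of the estrogen-related receptor site (TCAAGGTCA, whose end overlaps with the repeat searched next) were found in 1 of the 35, that of *Acsl6*, against 0.423% of all promoters. The direct repeat that PPAR receptors are known to bind as pairs with RXR (AGGTCANAGGTCA) was in none of the 35 windows without mismatch and in 0.0396% of all promoters. With up to 2 mismatches on either strand it was in 4 of the 35, each of another gene, against 3.86% of all promoters, and the 3 matches before the start are shown here in capitals with 10 bases on each side.
Cd36, minus strand, chr5:17835937-17835969: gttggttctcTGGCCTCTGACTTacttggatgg
Echs1, minus strand, chr7:140116482-140116514: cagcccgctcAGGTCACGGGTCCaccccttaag
Etfa, minus strand, chr9:55512298-55512330: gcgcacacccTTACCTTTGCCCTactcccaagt
The fourth match, in *Slc25a20*, lay after the start. These matches describe letters in a window and say nothing of binding in these samples.

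Most of the 34 genes were higher in KO, by modest factors. With the thresholds of 0.05 for the adjusted p-value and 1.5 for the fold change (edgeR, quasi-likelihood test, Benjamini-Hochberg adjustment over 22071 genes), 12 were higher in KO, against 8.31% of all genes tested, and 3 were lower, against 8.39%. At the adjusted p-value alone, 26 were higher and 3 were lower, against 21.9% and 23.1% of all genes. In 27 genes every KO library lay above every WT library, and in 3 every KO library lay below, against 27.3% and 28.5% of all genes. The median log2 fold change of the 34 genes was 0.41, against -0.0041 over all genes tested, and they ranged from -1.57 to 1.46. The 12 genes that rose past both thresholds were *Cd36*, *Fabp3*, *Slc27a1*, *Acsl6*, *Cpt1b*, *Crat*, *Acadvl*, *Acadl*, *Acadm*, *Eci1*, *Acacb* and *Ppara*, and the 3 that fell were *Slc27a4*, *Acsl5* and *Acot1*. At a fold change over 2 in place of 1.5, 4 genes were higher and 2 were lower. In whole tissue, more cells of a type and more RNA per cell cannot be told apart.

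**Figure D1:**
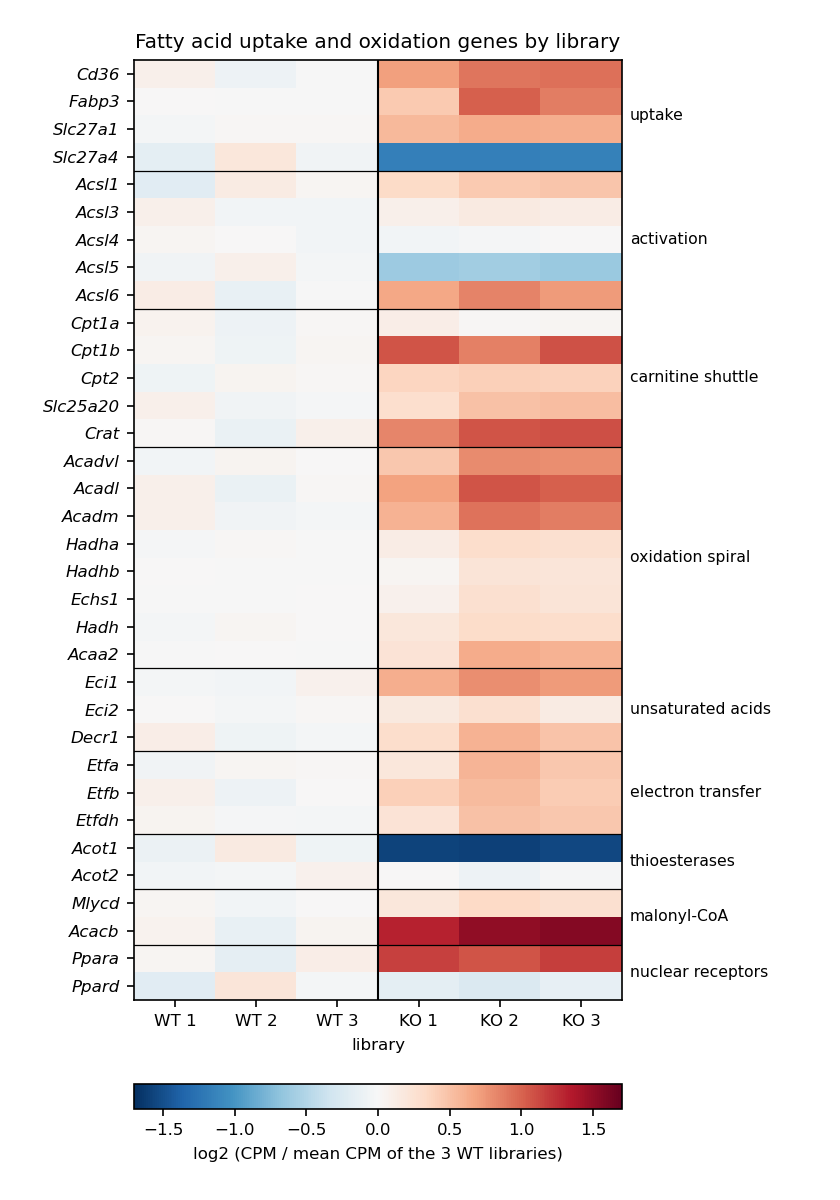
Level of each of the 34 genes (rows, grouped by role) in each library (columns), as log2 of its CPM over the mean CPM of the 3 WT libraries. Red, for levels above that mean, fills most of the KO columns, and the deepest blue lies at *Slc27a4* and *Acot1* (log2 fold changes of -1.16 and -1.57).

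**Figure D2:**
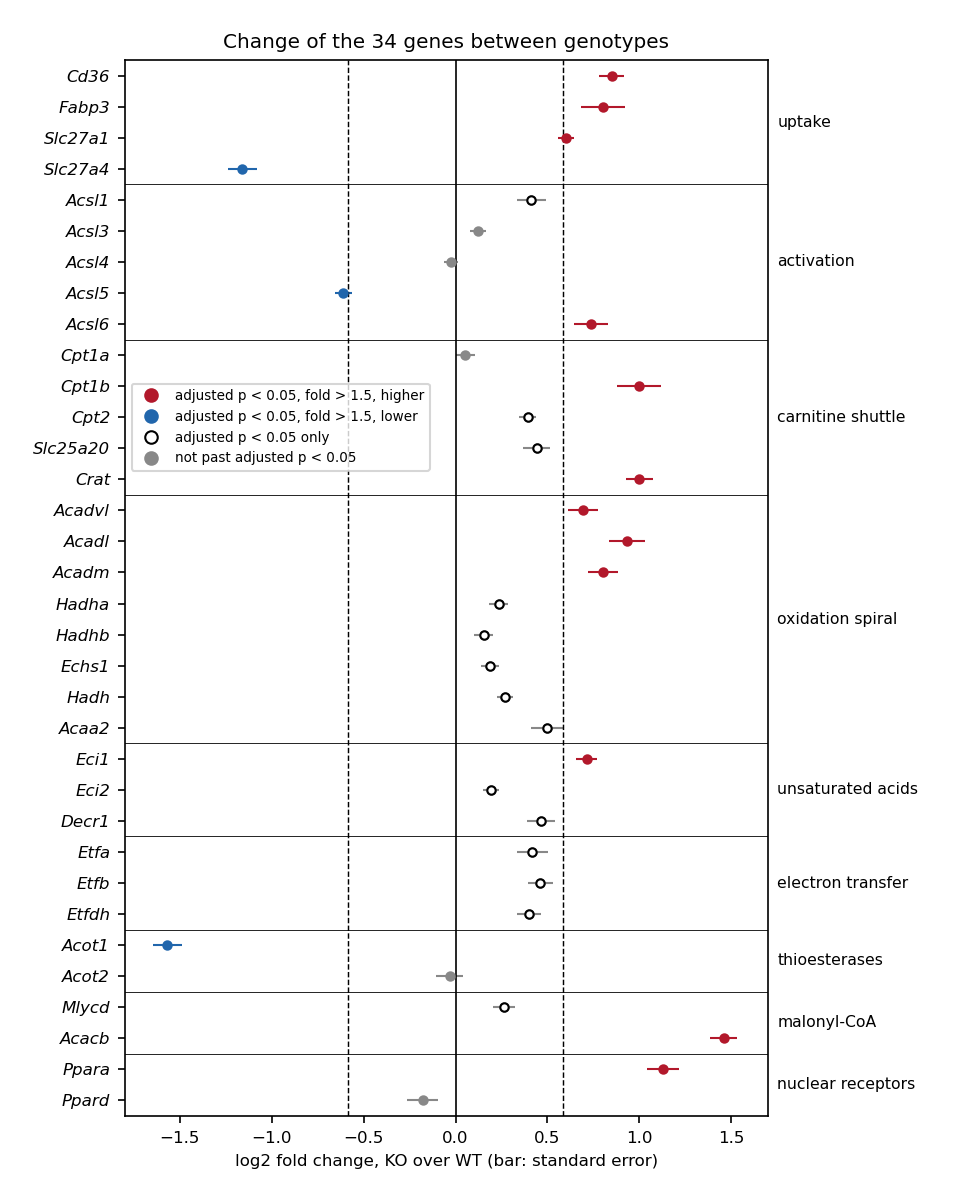
Log2 fold change of KO over WT (points) with its standard error (bars) for the 34 genes by role, with dashed lines at a fold change of 1.5 either way. Of the 34 points, 12 pass both thresholds on the right and 3 on the left, and all 8 genes of the oxidation spiral lie to the right of 0.

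Of the 4 uptake genes, 3 rose and 1 fell past both thresholds, against 8.31% and 8.39% of all genes tested. *Cd36*, the fatty acid translocase of the plasma membrane of muscle, fat and endothelium, stood at 123, 109 and 116 CPM in the WT libraries and at 189, 218 and 223 CPM in the KO libraries. The groups did not overlap, and the log2 fold change was 0.85 (standard error, SE, 0.069, adjusted p = 9.52e-06). *Fabp3*, the fatty acid binding protein of heart and muscle, stood at 34.2, 33.9 and 34 CPM in WT and at 46.3, 69.1 and 62.4 CPM in KO. Its WT values lay within 1 CPM of each other while KO replicate 1 lay well under the other KO values, and the log2 fold change was 0.80 (SE 0.12, adjusted p = 0.00048). Of the 100-base windows of its transcript, 21.7% also occur in the pseudogene *Fabp3-ps1*, so its counts depend on how such reads were assigned. *Slc27a1*, a fatty acid transport protein of muscle and fat, rose from 24.6, 25.5 and 25.5 CPM to 36.8, 39.0 and 38.8 CPM. The groups were far apart relative to their spread, and yet the fold of 1.52 (adjusted p = 4.49e-06) lay just past the threshold, which it no longer passed without WT replicate 1 or on unscaled library sizes (log2 fold changes of 0.58 and 0.53).

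*Slc27a4*, a transport protein of the same family that is known for its role in the skin barrier and in the gut, went the other way. It stood at 60.6, 77.6 and 65.4 CPM in WT and at 30.2, 30.2 and 30.5 CPM in KO, the WT values being spread and the KO values nearly equal. Its log2 fold change was -1.16 (SE 0.079, adjusted p = 2.97e-06), a level 2.24-fold higher in WT. All 10 epidermis markers were lower in KO past both thresholds, against 8.39% of all genes tested, with a median log2 fold change of -4.4. Among the WT libraries 10 of 10 were highest in replicate 2, where *Slc27a4* was highest, as were 75.8% of all genes called lower. The part of skin RNA in the result was not tested. Over the 6 libraries and not divided by length, *Krt1*, *Krt10* and *Lor* had the most counts of these markers, the first of them at 9575 ± 1963 CPM in WT against 215.5 ± 56.1 CPM in KO (SD, n = 3 each).

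The 5 long-chain acyl-CoA synthetases, which couple fatty acids to coenzyme A, did not move together. *Acsl1*, the main form of heart, muscle and fat, stood at 138, 174.5 and 162 CPM in WT and at 197, 215 and 218 CPM in KO. It rose at the adjusted p-value alone, without overlap of the groups and with a log2 fold change of 0.41 (SE 0.080, adjusted p = 0.0025). *Acsl3*, a form bound to lipid droplets and the endoplasmic reticulum, had a log2 fold change of 0.12 (adjusted p = 0.0561, and 0.00972 without WT replicate 1), and *Acsl4*, which prefers arachidonic acid, -0.024 (adjusted p = 0.65). *Acsl5*, a form known from gut and liver, fell from 49.8, 55.6 and 51.0 CPM to 34, 34.7 and 33.7 CPM. Its log2 fold change of -0.61 (SE 0.047, adjusted p = 6.9e-06) lay close to the fold threshold and came to -0.56 without WT replicate 2, no longer past it. Epidermis markers moved in the same direction. They were highest in that library among the WT libraries, as were 75.8% of all genes called lower. The part of skin RNA in the fall of *Acsl5* was not tested. *Acsl6*, known from brain and other tissues, was low in every library, at 3.2, 2.69 and 2.92 CPM in WT and 4.62, 5.25 and 4.84 CPM in KO. It rose without overlap, by a log2 fold change of 0.74 (SE 0.092, adjusted p = 0.00016).

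In the carnitine shuttle 2 of 5 genes rose past both thresholds, against 8.31% of all genes tested. Another 2 rose at the adjusted p-value alone, which 21.9% of all genes passed upward, and *Cpt1a* passed neither. Carnitine palmitoyltransferase of the outer membrane is the regulated entry step, with a liver form, *Cpt1a*, and a muscle form, *Cpt1b*. *Cpt1a* stood at 30.9, 27.8 and 30.0 CPM in WT and at 31.9, 29.9 and 30.3 CPM in KO. These ranges overlapped, and the log2 fold change was 0.053 (SE 0.052, adjusted p = 0.451). *Cpt1b* was counted 88, 71 and 98 times in WT and 178, 156 and 186 times in KO, or 0.930, 0.859 and 0.928 CPM against 1.90, 1.64 and 1.91 CPM. Every KO value was well above every WT value, with a log2 fold change of 1.0 (SE 0.12, adjusted p = 0.000118). The level of the muscle form is uncertain, since 81.4% of its exons are shared on the same strand with the readthrough gene *Gm44502* in GENCODE M21, and how reads in shared exons were assigned was not tested. The unshared exon of *Cpt1b* covers 628 of 3372 bases.

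Of the other shuttle genes, *Crat*, the carnitine acetyltransferase of mitochondria and peroxisomes that buffers acetyl-CoA, rose from 89.5, 82.1 and 93.9 CPM to 158, 185 and 189.7 CPM. This was a fold of 2.01 with a log2 fold change of 1.0 (SE 0.074, adjusted p = 5.24e-06), and KO replicate 1 was the lowest of the KO libraries. *Cpt2*, the transferase of the inner membrane, had a log2 fold change of 0.39 (adjusted p = 0.000118). *Slc25a20*, the carrier that exchanges acylcarnitine for carnitine, had a log2 fold change of 0.44 (adjusted p = 0.000991). Both were without overlap between genotypes and under the fold threshold.

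All 8 genes of the oxidation spiral were higher in KO at the adjusted p-value alone, against 21.9% of all genes tested. *Hadhb* and *Echs1* were not so under every alternative. Of the 8, 3 passed both thresholds, the acyl-CoA dehydrogenases, against 8.31% of all genes tested. *Acadl*, the long-chain dehydrogenase on the minus strand of chromosome 1 (chr1:66830839-66863277 in mm10), stood at 139, 121 and 132.5 CPM in WT and at 209, 275.5 and 265 CPM in KO. The KO libraries were 1.91-fold higher, with a log2 fold change of 0.93 (SE 0.097, adjusted p = 5.04e-05), and KO replicate 1 lay between the WT libraries and the other KO libraries. *Acadm*, the medium-chain form, rose from 77.2, 69.5 and 71.3 CPM to 109, 138 and 132.5 CPM, a log2 fold change of 0.80 (SE 0.083, adjusted p = 4.8e-05). *Acadvl*, the very-long-chain form of the inner membrane, rose from 26.8, 28.5 and 27.8 CPM to 38.1, 48.2 and 48.1 CPM, a log2 fold change of 0.69 (SE 0.084, adjusted p = 0.000139). In both, KO replicate 1 was again the lowest of the KO libraries while still above all WT libraries. The strand setting of the counting is not stated, and 42.9% of the exons of *Acadvl* lie opposite exons of *Dvl2*, whose reads could not be told apart without strand.

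The later steps of the spiral differed less. *Hadha* and *Hadhb*, the subunits of the mitochondrial trifunctional protein that act on long chains, had log2 fold changes of 0.23 (adjusted p = 0.00519) and 0.15 (adjusted p = 0.0384). The *Hadhb* rise was weak, with KO replicate 1 at 52.3 CPM against WT libraries at 51.6, 51.3 and 51.1 CPM. Its adjusted p-value was 0.0555 with DESeq2, 0.0559 with a replicate block and 0.173 on unscaled library sizes. With a library left out it lay between 0.00125 and 0.15. *Echs1*, the enoyl-CoA hydratase for short chains, had a log2 fold change of 0.19 (adjusted p = 0.0142), which missed the threshold without KO replicate 2 (0.066), without KO replicate 3 (0.0616) and on unscaled library sizes (0.0631). *Hadh*, the hydroxyacyl-CoA dehydrogenase for medium and short chains, had a log2 fold change of 0.27 (adjusted p = 0.000939). *Acaa2*, the thiolase that closes the round, stood at 80.0, 80.8 and 79.9 CPM in WT and at 94.5, 124 and 121 CPM in KO. Its WT libraries were nearly equal and KO replicate 1 lay far below the other KO libraries. The log2 fold change of 0.50 (SE 0.088, adjusted p = 0.00144) became 0.62 without that library, past the fold threshold.

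The 3 auxiliary enzymes for unsaturated fatty acids were all higher at the adjusted p-value alone, against 21.9% of all genes tested. *Eci1*, the enoyl-CoA isomerase of mitochondria, rose from 19.9, 19.8 and 21.4 CPM to 31.3, 35.2 and 33.7 CPM, which passed both thresholds without overlap (log2 fold change 0.71, SE 0.058, adjusted p = 9e-06). *Decr1*, the dienoyl-CoA reductase of mitochondria, had a log2 fold change of 0.46 (adjusted p = 0.000869), and *Eci2*, a related isomerase, 0.19 (adjusted p = 0.00573, and 0.055 on unscaled library sizes). The 3 genes that carry the electrons of the spiral onward, *Etfa* and *Etfb*, the subunits of the electron transfer flavoprotein, and *Etfdh*, which passes its electrons to ubiquinone, had log2 fold changes within a narrow range. These were 0.42 for *Etfa* (adjusted p = 0.0029), 0.46 for *Etfb* (adjusted p = 0.000529) and 0.40 for *Etfdh* (adjusted p = 0.000913). All 3 were higher without overlap of the genotypes, against 27.3% of all genes tested, and under the fold threshold. *Etfb* shares 53.0% of its exons on the same strand with *Gm45233*, so its level is uncertain.

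The 2 thioesterases, which split acyl-CoA back into fatty acid and coenzyme A, differed from each other. *Acot1*, the cytosolic form (chr12:84009490-84018371, plus strand), stood at 14.4, 17.1 and 14.7 CPM in WT and at 5.17, 5.12 and 5.26 CPM in KO. The WT level was 2.96-fold higher, the largest fall among the 34 genes, with a log2 fold change of -1.57 (SE 0.079, adjusted p = 4.66e-07). *Acot2*, the mitochondrial form encoded next to it, stood at 4.25, 4.30 and 4.62 CPM in WT and at 4.42, 4.13 and 4.33 CPM in KO. Its ranges overlapped and its log2 fold change was -0.033 (SE 0.075, adjusted p = 0.758). The pair is close in sequence, with 12% of the 100-base windows of the longest *Acot1* transcript found in *Acot2* and 17.1% of those of *Acot2* found in *Acot1*, so reads of these stretches could have been counted for either. Among the WT libraries *Acot1* was highest in replicate 2, as were 10 of 10 epidermis markers and 75.8% of all genes called lower. The part of skin RNA in the fall was not tested.

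The malonyl-CoA step held the largest rise. *Acacb*, the acetyl-CoA carboxylase of the mitochondrial surface whose product inhibits the carnitine shuttle (chr5:114146535-114250761, plus strand), stood at 17.9, 15.8 and 17.8 CPM in WT and at 42.7, 48.7 and 50.7 CPM in KO. The KO level was 2.75-fold higher, with a log2 fold change of 1.46 (SE 0.074, adjusted p = 4.55e-07) and a wide gap between the groups. *Acaca*, the cytosolic carboxylase of fatty acid synthesis and no member of the set, had a log2 fold change of 0.077 (adjusted p = 0.196). *Mlycd*, which breaks malonyl-CoA down, was higher at the adjusted p-value alone, with a log2 fold change of 0.26 (SE 0.060, adjusted p = 0.00571).

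The 2 nuclear receptors also parted. *Ppara*, the receptor known for driving fatty acid oxidation in liver, heart and muscle, rose from 3.08, 2.71 and 3.27 CPM to 6.73, 6.33 and 6.81 CPM, more than doubling without overlap. Its log2 fold change was 1.13 (SE 0.086, adjusted p = 6.38e-06). *Ppard*, the form with the higher level in these libraries, stood at 48.0, 63.2 and 53.5 CPM in WT and at 49.0, 46.5 and 49.9 CPM in KO. Its ranges overlapped, WT replicate 2 being high, and the log2 fold change was -0.18 (SE 0.085, adjusted p = 0.12, and 0.0148 without WT replicate 1). Per kb of exon, *Ppard* was at 7.30 ± 1.02 CPM in WT against 0.788 ± 0.0741 CPM for *Ppara*, and in KO at 6.45 ± 0.232 CPM against 1.73 ± 0.0671 CPM (SD, n = 3 each).

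**Figure D3:**
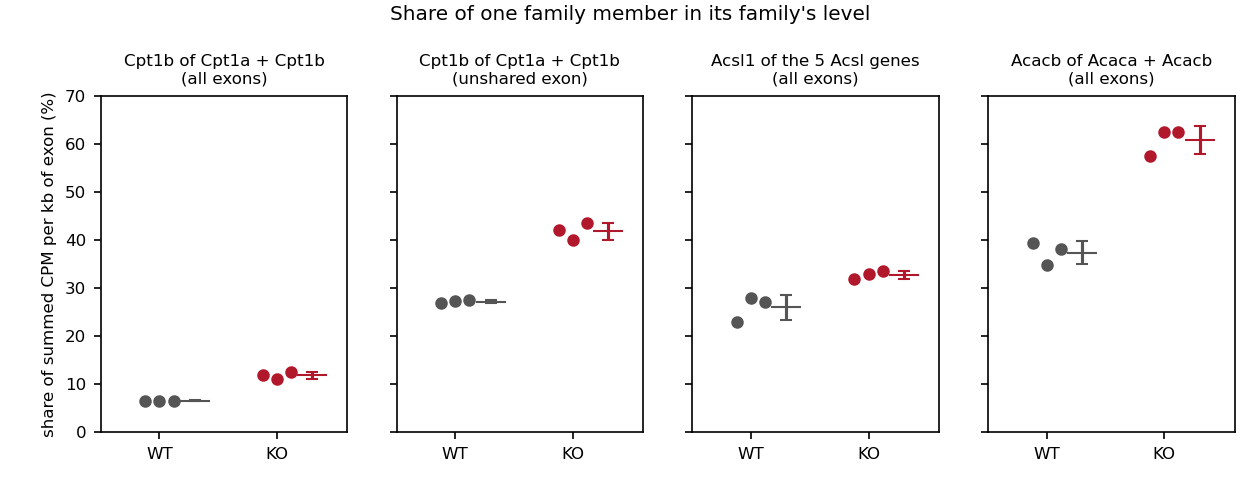
Share of 1 gene in the summed level per kb of exon of its family, in percent, for each library (points) with the mean and SD of each genotype (bars, n = 3). From left to right the panels give *Cpt1b* by all exons and by unshared exons, which divide the same counts by different lengths, *Acsl1* and *Acacb*, and for each of the 3 genes all KO libraries lie above all WT libraries.

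Where several genes encode the same step, the makeup of the step differed between genotypes. *Acacb* made up 39.3, 34.7 and 38.1% of the summed level per kb of exon of *Acaca* and *Acacb* in WT and 57.4, 62.5 and 62.6% in KO. The share rose by 23.5 percentage points, from 37.4 ± 2.37% to 60.9 ± 2.95% (SD, n = 3 each), without overlap of the genotypes. The KO shares were 45.2, 50.5 and 50.6% per kb of the longest transcript and 43.2, 48.5 and 48.6% without division by length, so which form was the greater part in KO depended on the length used. *Acsl1* made up 26.0 ± 2.65% of the 5 synthetases in WT and 32.7 ± 0.897% in KO, again without overlap. Its share also depended on length, at 37.1 ± 3.23% and 44.9 ± 1.01% per kb of the longest transcript. Without division by length it was 43.8 ± 3.39% in WT and 51.9 ± 1.01% in KO. *Cpt1b* made up 6.38, 6.54 and 6.55% of *Cpt1a* and *Cpt1b* in WT and 11.9, 11 and 12.5% in KO. Dividing the same counts by the unshared exon length alone, an alternative chosen after seeing the data, gave shares of 27.2 ± 0.314% and 41.8 ± 1.74%. The size of the *Cpt1b* share thus rests on the length assigned to it, and the order of the libraries cannot change with that length. Each of the 3 comparisons gave p = 0.1 in an exact two-sided permutation test over 20 splits, the smallest p that 3 against 3 allows, also after adjustment over the 3, so none can pass a threshold of 0.05.

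Levels can be compared between genes only per kb of exon, and on that scale the order of the 34 genes was much the same in both genotypes. *Acadl* was the highest, at 65.2 ± 4.68 CPM per kb in WT and 124.7 ± 17.7 in KO (SD, n = 3 each). *Acaa2* followed with 52.9 ± 0.350 and 74.7 ± 10.7 CPM per kb, and *Fabp3* with 41.4 ± 0.214 and 72 ± 14.2, a pair that in KO did not differ beyond its spread. *Etfa* and *Cd36* came next in WT, at 33.7 ± 1.10 and 32.4 ± 1.96 CPM per kb, also within their spread, and in KO *Cd36* at 58.4 ± 5.11 lay above *Etfa* at 45.0 ± 5.99. *Crat* moved from place 10 to place 6 and *Slc27a4* from place 11 to place 22. *Ppara*, *Acsl6* and *Cpt1b* were at the lower end in WT, the last with the uncertainty described above.

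**Figure D4:**
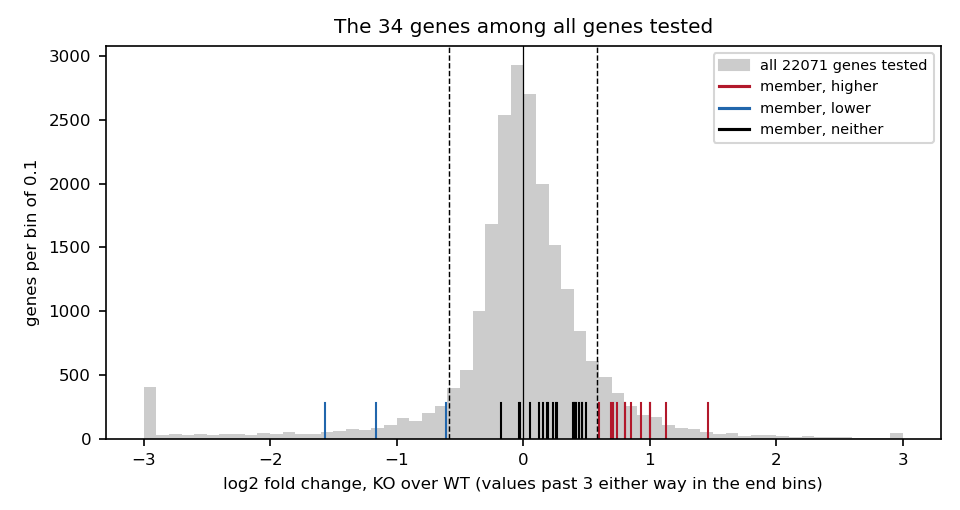
Histogram of the log2 fold change of KO over WT for all 22071 genes tested (grey, genes per bin of 0.1), with a tick for each of the 34 genes and dashed lines at a fold change of 1.5 either way. The median of all genes is -0.0041 and that of the 34 ticks 0.41, and no tick lies beyond -1.57 or 1.46.

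Other genes of lipid handling, its regulation and mitochondria in general were taken from 9 lists that held 125 genes outside the 34, of which 119 were tested. Of these, 22 were higher and 6 were lower past both thresholds, against 8.31% and 8.39% of all genes tested, and 58 and 18 at the adjusted p-value alone, against 21.9% and 23.1%. The counts of lower genes lay below these shares, and the median log2 fold change was 0.16. Among 12 genes of lipolysis and lipoprotein lipase, 5 were higher past both thresholds, with 9 higher and 1 lower at the adjusted p-value alone. *Lpl*, the lipase that frees fatty acids from circulating lipoproteins, rose from 138, 118 and 142 CPM to 375, 444 and 432 CPM, a fold of 3.14 with a wide gap between the groups (log2 fold change 1.65, SE 0.085, adjusted p = 5.17e-07). *Pnpla2*, the triglyceride lipase of lipid droplets, rose 2.91-fold (adjusted p = 1.14e-06). *Plin5*, which ties lipid droplets to mitochondria in oxidative tissue, rose from 0.549, 0.303 and 0.502 CPM to 2.42, 3.71 and 3.61 CPM (log2 fold change 2.83, SE 0.23, adjusted p = 9.52e-06). The others were *G0s2*, an inhibitor of that triglyceride lipase, with a log2 fold change of 0.91 (adjusted p = 1.62e-05), and *Mgll*, the monoglyceride lipase, with 0.66 (adjusted p = 2.41e-06).

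Of 15 PPAR target genes, 5 were higher and 1 was lower past both thresholds, against 8.31% and 8.39% of all genes tested. Besides *Lpl*, the higher ones were *Pdk4*, the kinase that holds back pyruvate oxidation (log2 fold change 0.99, adjusted p = 6.64e-05), *Ucp3*, the uncoupling protein of muscle (1.0, adjusted p = 2.98e-05), *Ehhadh* of peroxisomes (0.74, adjusted p = 1.91e-05) and the low *Acaa1b* (0.93, adjusted p = 0.000347). The gene that was lower was *Fgf21*, a hormone known from liver, at 0.232, 0.290 and 0.294 CPM in WT and 0.0640, 0.0315 and 0.0308 CPM in KO, the last close to the limit of 3 counts. The median log2 fold change of the 15 was 0.23. Of 15 receptor partners and coactivators, 4 were higher past both thresholds, against 8.31% of all genes. These 4 were *Lpin1* (log2 fold change 1.30, adjusted p = 7.49e-07), *Ppargc1a*, a coactivator of mitochondrial genes (1.02, adjusted p = 1.78e-05), *Pparg*, the PPAR of adipocytes (0.95, adjusted p = 2.78e-06), and *Esrrg*, an estrogen-related receptor (0.79, adjusted p = 0.000214). At the adjusted p-value alone 6 were higher and 2 lower, against 21.9% and 23.1% of all genes, and the median of the 15 was 0.084. The 2 lower genes were *Rxra*, an RXR gene (log2 fold change -0.39, adjusted p = 0.000526), and *Pprc1* (-0.40, adjusted p = 7.71e-05), both under the fold threshold.

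Among 16 other genes of mitochondrial oxidation, 15 were tested. Of these, 2 were higher and 1 was lower past both thresholds, against 8.31% and 8.39% of all genes tested. *Acads*, the short-chain dehydrogenase and so the counterpart of the 3 dehydrogenases above, rose at the adjusted p-value alone (log2 fold change 0.41, SE 0.049, adjusted p = 0.000116). *Acad9*, a dehydrogenase that is also an assembly factor of complex I, fell from 37.1, 45.4 and 39.6 CPM to 24.0, 22.9 and 22.6 CPM (log2 fold change -0.81, SE 0.071, adjusted p = 1.61e-05). The dehydrogenases of this family were thus not all higher. *Acot11* and *Acad12* were the genes that were higher, with log2 fold changes of 0.78 (adjusted p = 1.23e-05) and 0.62 (adjusted p = 0.00049).

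The relatives of the uptake and activation genes were the list with the largest falls. Of 15 genes, 10 were tested, and of these 1 was higher and 3 were lower past both thresholds, against 8.31% and 8.39% of all genes. *Fabp4*, the binding protein of adipocytes and endothelium, rose from 120, 98.6 and 109.5 CPM to 223, 265 and 254 CPM (log2 fold change 1.18, SE 0.082, adjusted p = 3.47e-06). *Fabp5*, the form of epidermis, fell from 616.5, 725 and 589 CPM to 120, 132 and 124 CPM (log2 fold change -2.36, SE 0.082, adjusted p = 7.25e-08), with WT replicate 2 the highest library. *Acsbg1*, a synthetase known from brain and other tissues, fell from 43.6, 61.3 and 49.6 CPM to 17.1, 14.5 and 14.9 CPM (log2 fold change -1.73, SE 0.12, adjusted p = 2.85e-06), again highest in WT replicate 2. The third was *Fabp6*, at most 0.349 CPM in any library. Epidermis markers moved in the same direction as these falls, and their part was not tested.

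The 12 muscle fiber markers rose more than the 34 genes did. The 7 slow fiber markers did not, with a median log2 fold change of 0.20 against 0.41 for the 34 genes. They were not used as a reference here, so the scale below holds for the 12 markers alone. Of the 12 muscle fiber markers, 11 were higher past both thresholds, against 8.31% of all genes tested, with a median log2 fold change of 1.2. *Myh3*, the embryonic myosin, was not (log2 fold change -0.041, adjusted p = 0.651). The markers with the most counts over the 6 libraries, not divided by length, included *Myh8*, the perinatal myosin, at 4710 ± 501 CPM in WT against 14165 ± 1457 CPM in KO, and *Acta1*, at 4513 ± 202 CPM and 12495 ± 1707 CPM (SD, n = 3 each). Set against the summed level of these 12 markers, the 34 genes came to 75.6, 86.2 and 78 CPM per 1000 CPM of fiber markers in WT and to 48.7, 46.1 and 45.8 in KO. On this scale the KO level was 0.586 of the WT level, and in each of the 9 roles every KO library lay below every WT library. The malonyl-CoA genes came closest to keeping pace, at 1.32 ± 0.0192 in WT and 1.20 ± 0.0479 in KO, followed by the carnitine shuttle at 7.07 ± 0.216 and 5.09 ± 0.241. The thioesterases and the nuclear receptors lay furthest below, at 0.210 and 0.415 of the WT level. In 7 roles the direction thus depended on whether all RNA or the 12 fiber markers were the reference. The thioesterases were lower on both scales, and the nuclear receptors overlapped between genotypes on the first.

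**Figure D5:**
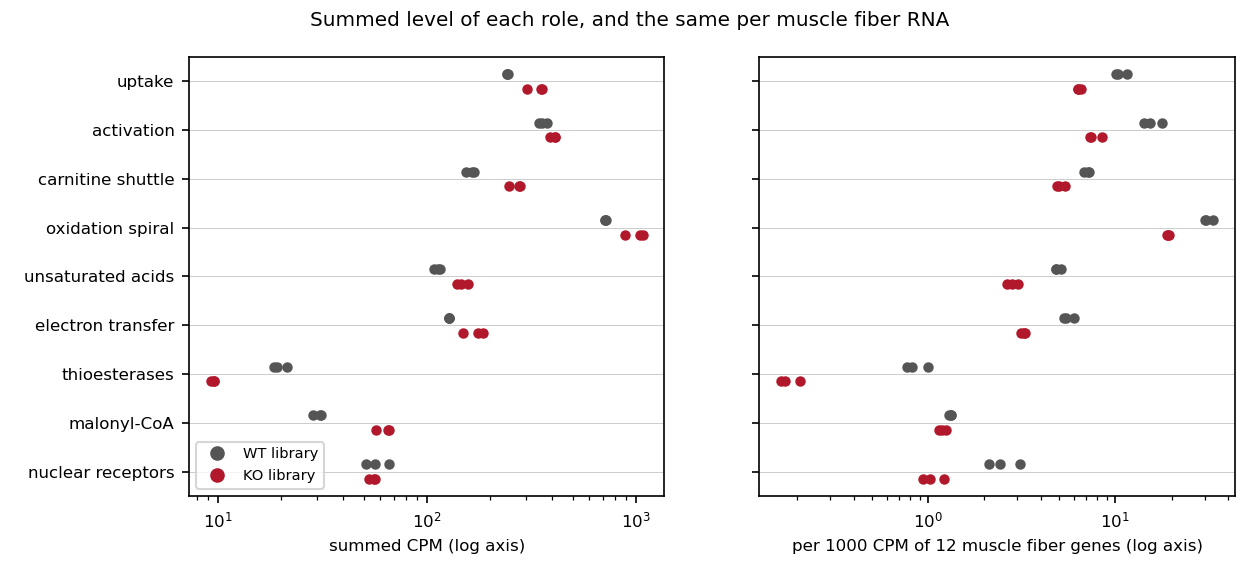
Summed CPM of the genes of each role (left, log axis) and the same per 1000 CPM of the 12 muscle fiber markers (right, log axis), 1 point per library, WT in grey and KO in red. On the left the KO points lie to the right of the WT points in 7 of the 9 roles, and on the right they lie to the left in all 9, as in the sum of the 34 genes (79.9 ± 5.57 in WT, 46.8 ± 1.6 in KO). The 12 markers were themselves higher in KO, so a gene of unchanged CPM would also lie to the left there.

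Markers of other cells that use these genes moved too. Of 10 adipocyte markers, 9 were higher past both thresholds and 10 at the adjusted p-value alone, against 8.31% and 21.9% of all genes tested. Their median log2 fold change was 3.0, with summed levels of 130 to 165 CPM in WT and 454.5 to 544 CPM in KO. The markers with the most counts over the 6 libraries, not divided by length, were *Fabp4*, given above, *Plin4*, at 5.12 ± 1.44 CPM in WT against 80.5 ± 17.2 CPM in KO, and *Adipoq*, at 7.03 ± 3.48 CPM and 44.9 ± 2.87 CPM (SD, n = 3 each). *Fabp4* and *Lipe* stand in this list and also among the pathway genes, as *Ppargc1a* does in the next. Of the 7 brown adipocyte markers, 6 were tested, 4 were higher and 1 was lower past both thresholds, and *Ucp1*, the defining gene, was near 0 and lower in KO, at 0.433, 0.666 and 0.483 CPM in WT and 0.160, 0.0839 and 0.144 CPM in KO. Of 10 endothelial markers, 8 were higher at the adjusted p-value alone and stayed under the fold threshold, with a median of 0.19, and summed levels of 810 to 837 CPM in WT and 938 to 988 CPM in KO. Of 7 markers of slow fibers, 3 were higher past both thresholds, against 8.31% of all genes, with a median of 0.20. At the adjusted p-value alone 4 were higher and 1 was lower, and their log2 fold changes ranged from -0.194 to 1.65. Of 8 macrophage markers, 5 were higher past both thresholds and 7 at the adjusted p-value alone, with a median of 0.67 and summed levels of 266 to 284 CPM in WT and 414.5 to 454 CPM in KO. *Cd36*, *Lpl*, *Pparg* and *Pnpla2* are known from adipocytes as well as from muscle, and the part of fat, endothelium, macrophage or fiber RNA in their rise was not tested.

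Genes of mitochondria in general moved less than the 34. Of 20 genes of mitochondrial housekeeping, 2 were higher past both thresholds, a share near the 8.31% of all genes tested. At the adjusted p-value alone 9 were higher and 2 lower, against 21.9% and 23.1% of all genes. The median log2 fold change was 0.090. The 2 past both thresholds were *Mfn2*, a fusion protein (0.73, adjusted p = 2.87e-06), and *Cs*, citrate synthase (0.62, adjusted p = 5.71e-05). The transcripts of the mitochondrial genome took 4.59 to 4.72% of all counts in WT and 5.30 to 5.96% in KO. The 34 genes took 0.185 to 0.189% of all counts in WT and 0.225 to 0.250% in KO. Of 10 genes of flavin supply and electron transfer accessories, 6 were higher at the adjusted p-value alone, against 21.9% of all genes. Only *Coq9*, of ubiquinone synthesis, was higher past both thresholds (0.89, adjusted p = 5.98e-06), against 8.31% of all genes.

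The libraries of a genotype did not share the changes equally. KO replicate 1 was the lowest KO library in 10 of the 12 genes that rose past both thresholds and in 23 of the 26 that rose at the adjusted p-value alone, and WT replicate 2 was the lowest WT library in 10 of the 12. Among all 1835 genes called higher, KO replicate 1 was the lowest KO library in 60.4%, and WT replicate 2 was the lowest WT library in 961 genes. Among the 12 fiber markers KO replicate 1 was the lowest KO library in 10. The 3 genes that fell were all highest in WT replicate 2 and lowest among WT libraries in replicate 1. Among the WT libraries, 75.8% of all 1852 genes called lower were also highest in replicate 2, and 1155 of them were lowest in replicate 1. Without KO replicate 1, 13 of the 34 genes were higher past both thresholds and 3 were lower, and without WT replicate 2 the counts were 12 and 2.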

How the data were processed

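RNA of leg muscle from WT and KO fetuses was analysed in 3 libraries of each genotype. The authors trimmed reads with Trim Galore 0.6.6, mapped them to mm10 with HISAT2 2.2.1, counted them per gene with featureCounts 2.0.1 and deposited the raw counts in per-sample files and a joint table with equal values (0 differ). The gene models, the strandedness and the unit counted (reads or pairs) are not given in the sources used here. Symbols, exon lengths and overlaps came from GENCODE M21, which held 55227 of the 56262 gene IDs. Counts were tested in R 4.3.3 with edgeR 4.0.16 (filterByExpr, TMM, quasi-likelihood test on genotype alone, Benjamini-Hochberg adjustment over 22071 genes), with standard errors taken from the log2 fold change and its F statistic. The thresholds for a call were 0.05 for the adjusted p and 1.5 for the fold change. DESeq2 1.42.0 and limma-voom 3.58.1 were alternatives. The tests were tested on simulated data. Libraries of a genotype differed by more than counting noise (mean chi-square per gene 5.17 to 35.5, where noise alone gives a mean of 1). The median chi-square per gene was 1 to 2.44, so the means rest on a smaller part of the genes.

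The members and lists were chosen with earlier results of these data known. Named were all 34 members, of each other pathway list up to 3 called genes with the largest log2 fold change at a mean of at least 1 CPM, *Ppargc1a*, *Pparg*, *Pdk4*, *Acaca*, *Lpl*, *Fabp4* and *Acads*, of described marker lists up to 3 genes of the highest mean CPM, and *Synpo2*. *G0s2*, *Mgll*, *Acaa1b*, *Fgf21*, *Esrrg*, *Rxra*, *Pprc1*, *Fabp6* and *Ucp1* were named after their values were seen. The labels do not say whether replicate numbers pair the samples, which were taken as unpaired. Same-numbered deviations had correlations of -0.20, -0.134 and 0.0472, and differently numbered ones ran from -0.132 to 0.214. Deviations from a mean of 3 libraries sum to 0, so these values cannot decide it. Promoters came from RefSeq, and transcripts were compared in windows of 100 bases.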

Additional observations from a re-analysis of the deposited data

How the results depend on the processing

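Each of the 34 genes was refitted under 14 settings (other scaling factors, other filters, DESeq2, limma-voom, a replicate block, and each library left out). In all of them 28 kept their sign and their call at both thresholds together. At the adjusted p-value alone some of these 28 were less stable. Over the settings it lay on both sides of 0.05 for *Hadhb* (0.00125 to 0.173), *Echs1* (0.00126 to 0.066), *Eci2* (0.00113 to 0.055), *Acsl3* (0.00972 to 0.429) and *Ppard* (0.0148 to 0.379). *Slc27a1*, *Acsl5* and *Acaa2* changed their call at both thresholds as given above, and *Acsl5* also with upper-quartile factors (-0.54). Signs turned only where the change was near 0. *Acsl4* came to 0.044 and *Acot2* to 0.035 with upper-quartile factors, *Cpt1a* to -0.016 on library size only, and *Acot2* to between -0.058 (without WT replicate 1) and 0.0063 (without WT replicate 3) with a library left out. With the replicate block 12 genes were higher and 3 lower past both thresholds, 25 and 3 at the adjusted p-value alone, with a median of 0.41, so it changed no count by over 1.5 times. With a library left out the counts ran from 11 to 13 higher and from 2 to 3 lower, and the median from 0.39 to 0.49. A fold change over 2 left 4 genes higher. The rise in the *Cpt1b* share of 5.32 percentage points came to 3.73 per kb of the longest transcript, 2.61 without division by length and 14.7 per kb of unshared exon, as the length assigned to *Cpt1b* differs between these. Depth was not the limit for most members, but *Cpt1b*, with 71 to 186 counts, rests on few.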

Other observations

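Peroxisomes shorten very long and branched chains before mitochondria take over. Of 16 genes of peroxisomal oxidation, 4 were higher past both thresholds, against 8.31% of all genes tested. At the adjusted p-value alone 9 were higher and 3 lower, against 21.9% and 23.1%, with a median log2 fold change of 0.17. *Abcd2*, a transporter of very long acyl-CoA into peroxisomes, rose from 5.11, 4.50 and 5.11 CPM to 13.3, 16.3 and 17.5 CPM, a fold of 3.19 without overlap (log2 fold change 1.68, SE 0.11, adjusted p = 1.91e-06). *Phyh*, which starts the breakdown of phytanic acid, had a log2 fold change of 0.63 (adjusted p = 0.000137), and *Ehhadh* and *Acaa1b* were given above.

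Of 12 genes of malonyl-CoA and AMPK, the kinase that senses energy shortage and inactivates acetyl-CoA carboxylase, 1 was higher and 1 was lower past both thresholds, a share near the 8.31% and 8.39% of all genes tested. *Prkaa2*, its catalytic subunit of muscle, rose from 31.9, 27.2 and 29.0 CPM to 42.5, 52.7 and 54.2 CPM (log2 fold change 0.76, SE 0.092, adjusted p = 0.000135). *Trib3*, a pseudokinase induced by stress, fell from 4.74, 7.72 and 5.78 CPM to 1.43, 1.49 and 1.46 CPM (log2 fold change -2.05, SE 0.17, adjusted p = 9.73e-06), with WT replicate 2 the highest library.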
